A study of Mus musculus with 12 samples.

Results

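The replication-dependent histone genes were taken as every gene expression row whose symbol begins with Hist1h, Hist2h, Hist3h or Hist4h, which gave 67 genes of 32285 measured. They comprised 6 H1 linker genes, 18 H2A, 18 H2B, 12 H3 and 13 H4 genes. By the RefSeq table for GRCm38.p6, 54 of them lay in the Hist1 cluster on chromosome 13, 10 in Hist2 on chromosome 3, 2 in Hist3 on chromosome 11 and 1, Hist4h4, on chromosome 6. Their mRNA was measured in 45477 cells from B16-F10 melanomas (a mouse skin tumour line) growing in 6 Rag1-deficient mice (B6.129S7-Rag1tm1Mom/J), a strain that makes no T or B cells of its own. All 6 mice had received Pmel Thy1.1 CD8+ T cells, which carry a receptor for a melanocyte antigen. Before transfer these T cells were cultured with vehicle for 3 mice (control) and with CAL-101, also called idelalisib, for the other 3 mice; the drug blocks the PI3K delta kinase. Live CD45.2+ cells of part of each tumour were sorted. The labels give no age, sex or time after transfer. Mice are listed throughout as control mice 1 to 3 and then CAL-101 mice 1 to 3.

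Replication-dependent histones package newly copied DNA. Their genes lie in clusters, lack introns in most cases and are transcribed in S phase, when NPAT (nuclear protein, coactivator of histone transcription) drives them. The mRNAs end in a stem-loop that is bound by SLBP (stem-loop binding protein) in place of a poly(A) tail, and they are degraded when replication ends. Some members, Hist1h2bc and Hist1h1c among them, are also known to give polyadenylated mRNA in cells that do not divide. The H1 proteins bind the linker between nucleosomes, pairs of H2A, H2B, H3 and H4 form the nucleosome core, and many genes encode nearly the same protein. The libraries were primed from poly(A) by a 3' chemistry, so a level is a count of captured 3' ends and was not divided by gene length, and levels of different genes also depend on how often each mRNA carries a poly(A) stretch. Reads from near-identical copies may be split or lost, so values of single H2A, H2B, H3 and H4 genes are less certain than family sums.

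Promoters of some members on which the results turn are given as 150 bases up to the base before the RefSeq start (build GRCm38.p6). They are read 5' to 3' on the gene's strand. Hist1h2bc and Hist1h3a had no promoter entry, and those of Hist1h2ap and Hist1h4d, among others, are not printed. The printed ones are given because these members moved in different directions in the comparisons that follow. Capitals mark exact matches, on either strand, to 4 motifs, which are the CCAAT box (its letters are its name), the TATA box TATAAA, the octamer ATTTGCAT and the H1 box AAACACAA.
Hist1h1b (chr13:21780626-21780775, minus strand): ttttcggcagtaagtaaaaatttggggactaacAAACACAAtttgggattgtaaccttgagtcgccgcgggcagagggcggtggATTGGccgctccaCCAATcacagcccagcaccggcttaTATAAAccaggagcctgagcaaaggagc
Hist1h1a (chr13:23763518-23763667, plus strand): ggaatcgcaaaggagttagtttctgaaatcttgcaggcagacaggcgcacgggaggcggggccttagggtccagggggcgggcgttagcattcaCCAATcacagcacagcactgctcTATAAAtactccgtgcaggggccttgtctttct
Hist1h1c (chr13:23738657-23738806, plus strand): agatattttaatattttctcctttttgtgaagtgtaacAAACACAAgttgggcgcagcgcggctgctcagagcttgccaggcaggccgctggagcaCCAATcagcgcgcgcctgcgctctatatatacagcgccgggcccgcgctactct
Hist1h2ae (chr13:23571221-23571370, minus strand): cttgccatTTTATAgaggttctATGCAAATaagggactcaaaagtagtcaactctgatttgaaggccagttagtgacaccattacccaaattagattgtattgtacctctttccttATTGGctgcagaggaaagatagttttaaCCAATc
Hist1h2bj (chr13:22043048-22043197, plus strand): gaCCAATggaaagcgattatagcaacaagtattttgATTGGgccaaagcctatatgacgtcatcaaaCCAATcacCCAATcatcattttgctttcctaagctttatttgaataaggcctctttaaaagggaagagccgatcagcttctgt
Hist3h2a (chr11:58954535-58954684, plus strand): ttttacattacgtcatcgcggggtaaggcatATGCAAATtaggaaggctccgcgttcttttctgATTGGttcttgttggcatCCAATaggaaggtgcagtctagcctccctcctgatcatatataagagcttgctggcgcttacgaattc
Hist1h4i (chr13:22041363-22041512, minus strand): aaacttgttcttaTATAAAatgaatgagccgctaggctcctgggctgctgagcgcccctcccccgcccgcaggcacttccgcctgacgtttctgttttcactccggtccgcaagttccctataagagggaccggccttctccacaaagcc
The H1 box was found in Hist1h1b and Hist1h1c within these stretches and not in that of Hist1h1a. Over 250 bases upstream, CCAAT was present in 82.3% of the 62 member promoters in the table against 34.5% of all 27025 promoters of that length. It was present in all 6 H1, 18 H2A and 16 H2B promoters and in 3 of 12 H4 promoters. TATAAA was found in 46.8% of members against 13% of all promoters, and AAACACAA in 4 of 6 H1 promoters against 1.67% of all. The octamer was found in 7 of 18 H2A promoters and 6 of 16 H2B promoters and in none of the H1, H3 and H4 promoters, against 1.61% of all. It lay on the gene's own strand in each of the 6 H2B promoters and on the other strand in each of the 7 H2A promoters. Head-to-head H2A and H2B genes lay only 163 to 280 bases apart, so their searched stretches overlap. A single match can then count for both genes, on opposite strands, and the H2A and H2B counts are not separate observations. A match is a run of letters, and no binding was measured.

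The 67 members together held 616524 UMIs (unique molecules counted), which was 988 to 1299 CPM (UMIs scaled to a fixed total of RNA UMIs) in the 6 libraries. The linker gene Hist1h1b led with 167826 UMIs, followed by Hist1h1e with 72565, Hist1h2ap with 55297 and Hist1h2ae with 46045. These 4 held 55.4% of all member UMIs and the first 12 held 80.7%, while 41 members had 1000 UMIs or more. H1 genes gave 48.2% of the member UMIs of T cells and H2A genes 25.4%, against 9.81% for H2B, 6.36% for H3 and 10.2% for H4. The testis-specific pair Hist1h2ba and Hist1h2aa had 0 UMIs in 45477 cells, which allows a share of cells with a UMI of up to 0.0066% (counting error only).

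Adjacent H2A and H2B genes that face away from each other share 1 promoter region, and 10 such pairs were found, 163 to 280 bases apart. The H2A gene had more UMIs in 6 pairs and the H2B gene in 3, and the last pair was the undetected one. Hist1h2ap had 55297 UMIs and its partner Hist1h2br 1066, and Hist1h2ae had 46045 against 2043 for Hist1h2bg. The order was the opposite in the pair of Hist1h2ag, with 2094, and Hist1h2bj, with 10258. The symbol Hist1h2ap belongs to 2 RefSeq genes, 1 of which is the only match of another member, and it was given the remaining one, so its place in a pair is less certain.

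Across the deposited clusters, histone mRNA was concentrated in 2 of 14. Cluster 2, in which 99.85% of 6459 cells carried a T cell label, held 66.9% of all member UMIs in 14.2% of the cells. Cluster 8, with 1417 cells of which 57.87% were labelled NK and 42.13% T, held 9.18% in 3.12%. The summed level per mouse was 1877 to 2706 CPM in cluster 2 and 1487 to 2266 CPM in cluster 8. In clusters 0, 1, 3, 5 and 7 it lay between 296 and 485 CPM. Clusters 4 and 6, whose cells had on average 17.1% and 33.8% of UMIs from mitochondrial genes, stood between, at 772 to 1111 CPM. Clusters 10 and 11, with 1.85% and 5.15% mitochondrial UMIs, also did, at 530 to 1057 and 609 to 1249 CPM. Cluster 9 stood at 442 to 605 CPM, and the small clusters 12 and 13 spread from 275 to 1247 and from 89.3 to 407 CPM. Clusters were formed on the expression of these cells, so these differences are a description with no test.

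Markers of cycling cells were high in both. In the T-labelled cells of cluster 2, 6 cycling markers summed to 2258 to 2434 CPM per mouse against 616 to 787 in the other T-labelled cells, and 6 T cell markers to 2837 to 3312. In the NK-labelled cells of cluster 8 the cycling markers summed to 2478 to 2660 CPM against 283 to 407 in the other NK cells. Within cluster 8 the label divided the histone level. NK-labelled cells had 2432, 2830.3, 2967, 2159, 2547 and 2554 CPM in the 6 mice, and T-labelled cells 936, 1099, 1149.8, 1021, 779.5 and 1052. The lowest NK value was above the highest T value, and the T-labelled cells also had lower cycling markers, 982 to 1388 CPM. Cluster 8 is therefore described below by its NK-labelled cells.

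**Figure D1:**
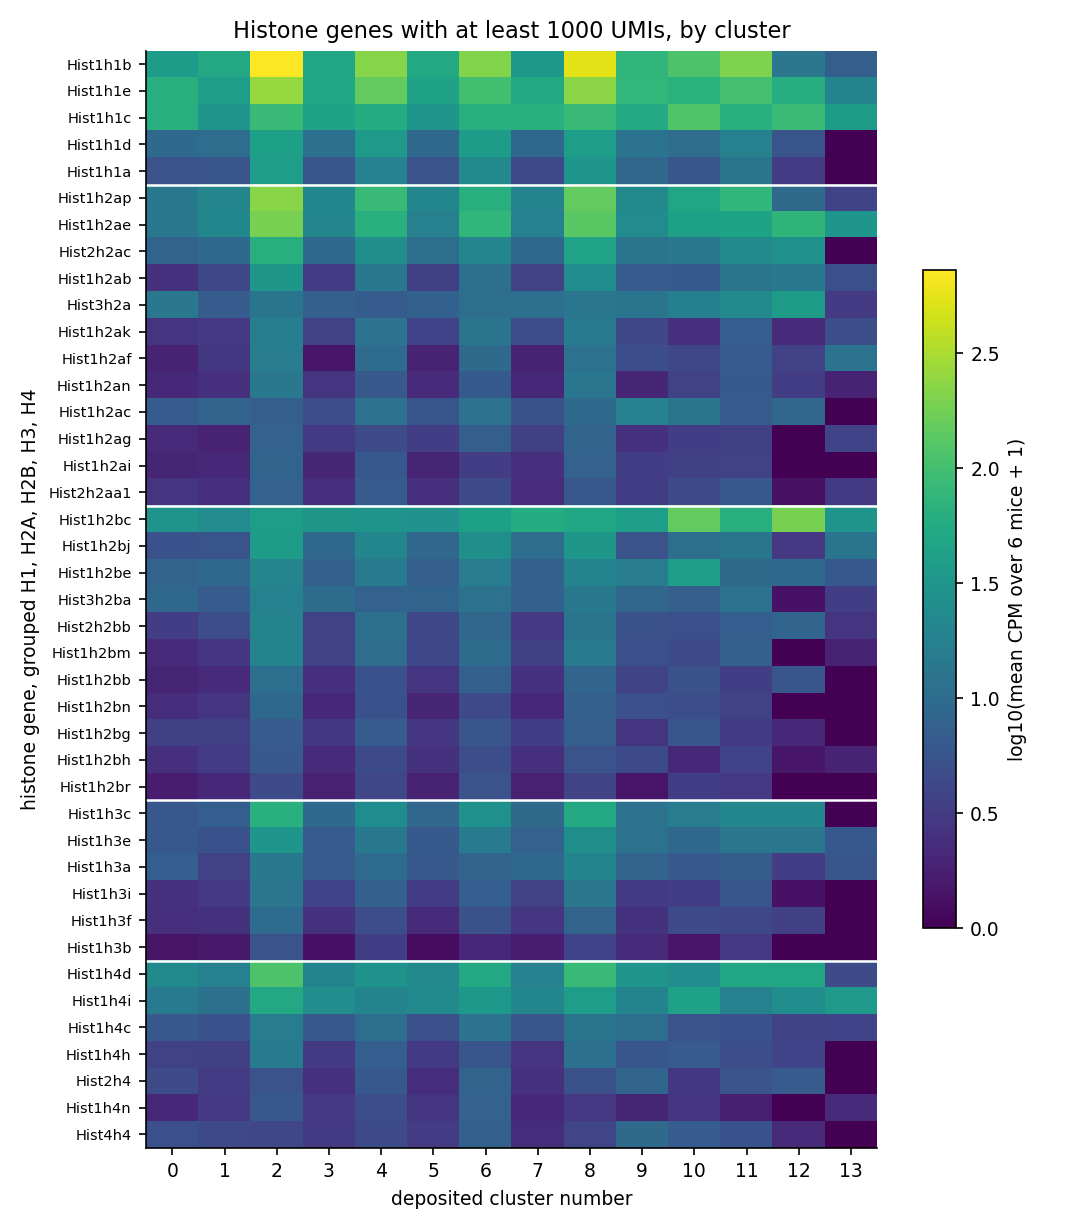
Heat map of the 41 histone genes with at least 1000 UMIs (rows, grouped by family) over the 14 deposited clusters (columns); colour is log10 of the mean CPM over 6 mice plus 1. Columns 2 and 8 are brightest for most rows, while Hist1h2bc is brightest in columns 10 and 12 and Hist1h1c in column 10.

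The members did not share 1 distribution over clusters. Among 62 members with at least 3 UMIs in each of clusters 2 and 1 (T cells outside the cycling cluster), the ratio of mean CPM in cluster 2 to that in cluster 1 had a median of 4.8. It was above 2 for 54 members and below 1 for 4. Hist1h1b had the largest ratio, 14-fold (724 against 51.9 CPM, 10.6 to 22.9 in single mice). Hist1h2ap followed at 11.7-fold, Hist1h3c at 10.4, Hist1h2bm at 10.1 and Hist1h2ab at 9.98. At the other end Hist2h2be was at 0.816, Hist1h2ac at 0.878, Hist4h4 at 0.916 and Hist2h3c1 at 1.05, each with mice on both sides of 1. The testis linker gene Hist1h1t, at 0.852, had only 5 UMIs in cluster 1. Cells of cluster 2 had a median of 25738 UMIs and 3.54% mitochondrial UMIs, those of cluster 1 a median of 2823 and 14.2%, and the part of depth and RNA quality in these ratios was not tested. The share of a member's UMIs that lay in clusters 2 and 8 ran from 41% for Hist1h2bc to 87.6% for Hist1h1b.

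Hist1h2bc and Hist1h1c were the 2 leading members in cells labelled neutrophils, which do not divide and numbered 13 to 206 per mouse. Hist1h2bc stood at 168, 209.7, 244, 280.3, 173 and 119.9 CPM there. In the T-labelled cells of cluster 2 it stood at 21.1 to 67.5 CPM, below the lowest neutrophil value. Hist1h1b showed the reverse, with a mean of 45.2 CPM in neutrophils.

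To compare cells with any histone UMI, each cell was thinned to 1600 UMIs, which left out 244 to 566 T cells and 81 to 156 NK cells per mouse. A histone UMI was then found in 84.1 to 93.6% of cluster 2 T cells and in 80.9 to 87.1% of cluster 8 NK cells. The share was 41.7 to 50.2% in the other T cells and 42.2 to 44.9% in the other NK cells, within the 30.8 to 58.7% seen in neutrophils. Median depths were 5338 to 7694 UMIs in those T cells and 2881 to 3926 in neutrophils. Free RNA was not measured, and neutrophils hold Hist1h2bc mRNA, so no share of expressing cells is read from these values. Before thinning, 81 to 85.4% of all T cells had a histone UMI.

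The next comparison asked how each histone mRNA was placed within the cycle. Cells of a cluster were ordered within each mouse by the share of S phase genes among the UMIs of an S phase and a G2/M list, neither of which holds a histone gene, split into 3 equal groups, and the groups at both ends were compared with the mouse as a block. In cluster 2, S phase genes made up 42.5 to 46% of the list UMIs in S-rich cells and 14.2 to 16.5% in G2/M-rich cells. The summed histone level was higher in the S-rich group in all 6 mice, at 2356, 2366, 2740.3, 1981, 2452 and 2194 CPM against 2049.6, 1839, 2127, 1458, 1964 and 1653. Median UMIs per cell were 21256 to 31983 in the S-rich and 22725 to 31607 in the G2/M-rich group.

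Of 55 members tested in cluster 2, 15 were higher and 7 lower in S-rich cells at an adjusted p under 0.05, and 48.8% of all 11797 genes tested were called (25.2% higher, 23.6% lower). The members' share, 40%, was below that background. The test compares only the 2 ends, and a member highest between them can show no change. The median member change was 0.07 on the log2 scale, against 0.00 over all genes. By family, 4 of 5 H1 genes and 6 of 13 H2A genes were higher, against 3 of 10 H3 genes, 2 of 12 H4 genes and 0 of 15 H2B genes. The lower ones were 1 H1, 2 H2A, 2 H2B and 2 H4 genes. The calls of 12 of the 22 members held in every alternative processing, and 1 (Hist1h2ab, adjusted p up to 0.061) was lost when control mouse 2 or 3 was left out.

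Linker genes were spread over the widest range. Hist1h1a rose most in S-rich cells, by 1.75 (log2, SE 0.07, adjusted p = 4.5e-16), and Hist1h1b rose by 0.82 (SE 0.03, adjusted p = 7.8e-17). Hist1h1d rose by 0.38 and Hist1h1e by 0.20. Hist1h1c, the linker gene with the highest level in neutrophils, fell by 0.20 (SE 0.05, adjusted p = 0.0006). In 5 equal bins from G2/M-rich to S-rich, Hist1h1a had means over 6 mice of 12.5, 25.5, 41.9, 55.2 and 59.6 CPM. Hist1h1b had 389, 653, 859, 917 and 796, so it peaked 1 bin before the end. The 2 linker genes that rose most therefore differed in profile.

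Among core histones, the abundant H2A genes Hist1h2ae and Hist1h2ap rose by 0.55 and 0.49, and Hist1h3a and Hist1h2an by 0.72 and 0.71. Hist1h4a rose by 0.91. Other members went the other way. Hist1h2bc fell by 1.31 (SE 0.10, adjusted p = 2.2e-10), and both Hist3 genes fell, Hist3h2ba by 1.18 (SE 0.08, adjusted p = 4.2e-12) and Hist3h2a by 0.86. Hist1h4h fell by 0.53, Hist1h4d, the most abundant H4 gene, by 0.31 and Hist1h2af by 0.29. Across the 5 bins Hist1h2bc had means of 63.9, 50, 30.4, 22.7 and 21.1 CPM, and Hist3h2ba 25.7, 20.8, 16.7, 12.8 and 9.3. Hist1h2bc was highest in the most G2/M-rich bin in all 6 mice, and Hist3h2ba in 5 of 6, with CAL-101 mouse 1 higher in the next bin (17.4 against 16.1 CPM).

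**Figure D2:**
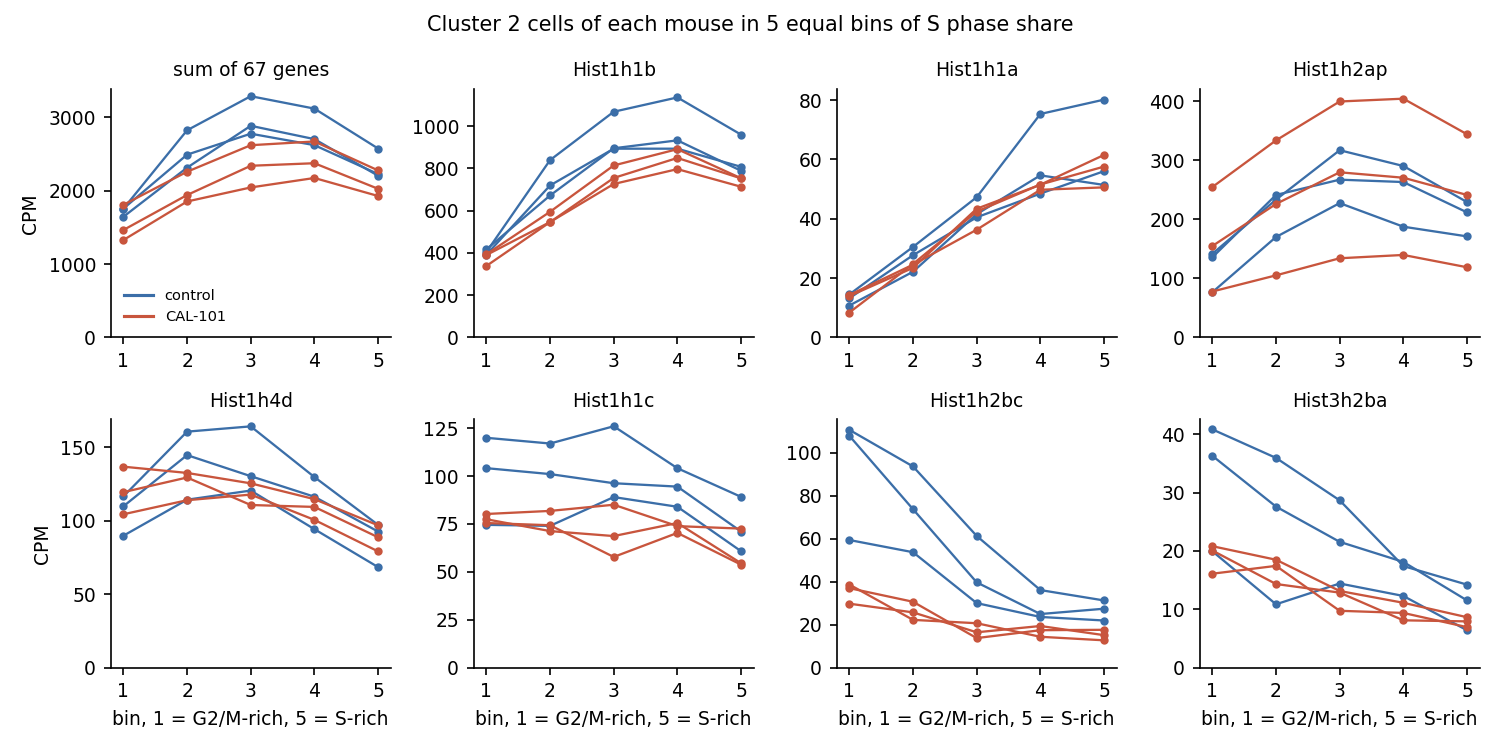
CPM of the summed 67 histone genes and of 7 single genes in cluster 2 cells, split within each mouse into 5 equal bins from G2/M-rich (1) to S-rich (5); each line is 1 mouse, blue control and red CAL-101. The sum peaks in bins 3 and 4, Hist1h1a rises from 12.5 to 59.6 CPM on average, and Hist1h2bc falls from 63.9 to 21.1 CPM.

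The summed level was not highest at the S-rich end. Its means over the 5 bins were 1625, 2278, 2656, 2608 and 2204 CPM in cluster 2, and in each of the 6 mice both ends lay below the middle bin. In cluster 8 NK cells the means were 1993, 2846, 3157, 2875 and 1883 CPM.

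In cluster 8, where a group held 18 to 81 cells per mouse, 19 members were tested, 2 were higher and 2 lower, and 13% of all 6628 genes were called (7.11% higher, 5.91% lower). Both higher members were among the 15 higher in cluster 2 (13.3%) and both lower ones among the 7 lower there (28.6%). The summed level was lower in the S-rich group in 4 of 6 mice, at 1922, 2717, 2792, 2427, 1902 and 2053 CPM against 2216, 2486, 3192, 1908, 2112 and 2484. The mean mitochondrial share was higher in the S-rich group in 5 of 6 mice, at 5.53, 6.3, 6.22, 5.83, 4.39 and 5.93% against 2.32, 4.86, 3.27, 3.89, 4.7 and 5.11%. Median depths were 12612 to 21646 UMIs in the S-rich and 14808 to 23112 in the G2/M-rich group, and the part of depth and RNA quality was not tested. Hist1h1a rose by 1.33 (SE 0.17, adjusted p = 4.8e-05) and Hist1h3a by 0.88 (SE 0.23, adjusted p = 0.018), and the call of Hist1h3a was lost without control mouse 2 or CAL-101 mouse 1 (adjusted p up to 0.14). Hist1h2bc fell by 1.86 (SE 0.14, adjusted p = 1.3e-07) and Hist1h1c by 0.74 (SE 0.12, adjusted p = 0.00029). Hist1h1b had 0.23 (SE 0.09, adjusted p = 0.12) here. The difference of the contrast between the clusters was 0.60 for Hist1h1b (SE 0.12), larger in cluster 2 in 6 of 6 mice, and 0.65 for Hist1h1a (SE 0.14), also in 6 of 6. Neither passed limma's test over 6594 genes (adjusted p = 0.28 for both), in which 1 gene (0.0152%) passed and none of the 19 members did. At an unadjusted p under 0.05, 9 members differed, where 9.84% of all genes did.

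The genes that make and process histone mRNA also moved along this axis. Of 19 tested from a list of histone mRNA transcription and processing genes, 10 were higher and 3 lower in S-rich cluster 2 cells, led by Slbp (0.98), Casp8ap2 (0.72), Npat (0.58) and the 3' exonuclease gene Eri1 (0.53). Of 21 histone chaperone and chromatin assembly genes, 19 were higher, among them Chaf1b (1.52), Chaf1a (1.22), Nasp (0.80) and Hat1 (0.72). Daxx was lower (-0.18). Of 10 genes for replication-independent variants, 7 were lower, led by the centromere histone gene Cenpa (-1.85), H2afx (-1.36) and H2afv (-0.87), and 1, H2afj, was higher (0.21). Over all genes in this comparison 25.2% were higher and 23.6% lower. In cluster 8, where 7.11% of all genes were higher and 5.91% lower, 3 of 15 processing genes and 13 of 19 chaperone genes were higher and 4 of 9 variants lower, with none called the other way.

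The main comparison of the study was CAL-101 against control. In all T cells together the summed histone level was 1232, 1236, 1288, 1081, 1333 and 1318 CPM and overlapped between groups. In T cells of cluster 2 it was 2386, 2340.3, 2706, 1879, 2339 and 2044 CPM, a mean of 2477 ± 200 (SD, n = 3) in control and 2087 ± 233 (SD, n = 3) in CAL-101 mice. Control values were higher there without overlap, although control mouse 2 and CAL-101 mouse 2 were almost equal. In a class summed over cells, fewer cycling cells and less histone mRNA per cell cannot be told apart. Cluster 2 made up 19.5, 15.8, 15.7, 18.7, 21.4 and 25.6% of T cells and held 75, 74.8, 71.2, 77.2, 80.8 and 83.4% of their histone UMIs. The share of T cells in cluster 2 overlapped between groups, and the share of histone UMIs was higher in every CAL-101 mouse.

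**Figure D3:**
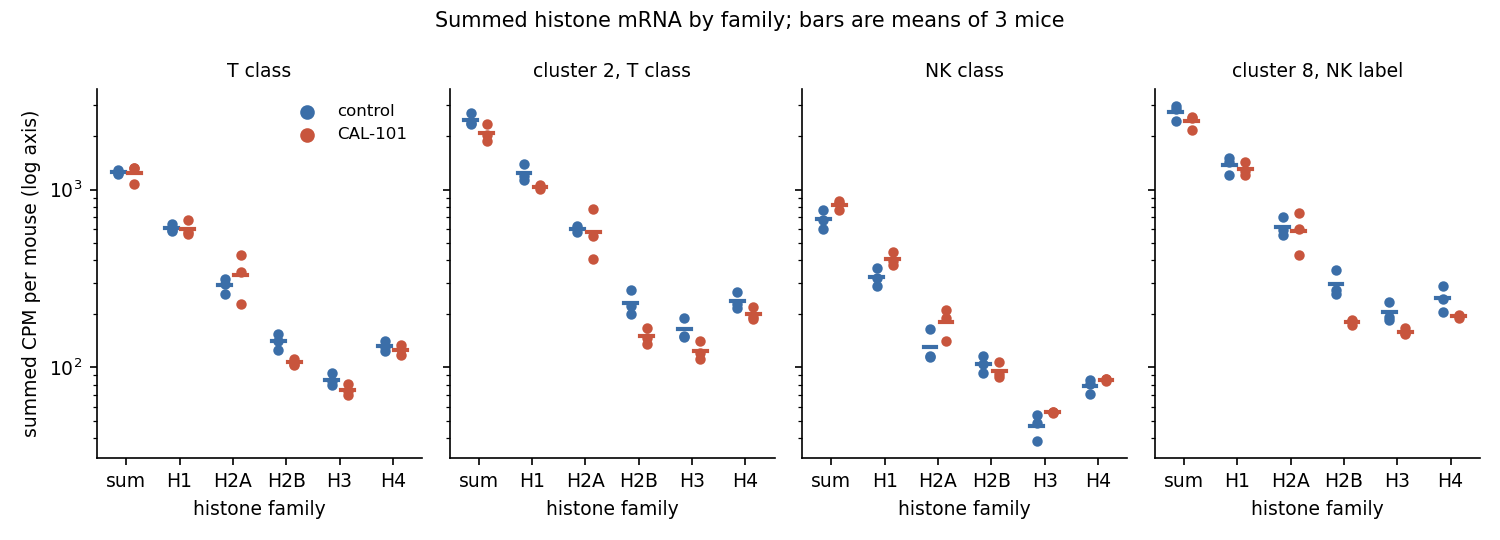
Summed CPM of all 67 histone genes and of each family in the 4 cell sets (log axis); points are mice, bars the means of 3 mice, blue control and red CAL-101. In cluster 2 the H2B sums are 199 to 273 in control and 135 to 166 in CAL-101 mice, while the H2A sums of the CAL-101 mice spread from 406 to 780.2.

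In the T class, 8 of 62 members tested were lower in CAL-101 mice and 0 higher, and 19.1% of all 16734 genes were called (9.46% higher, 9.63% lower). The members' share, 12.9%, was below that background. The median member change was -0.17 (log2) against 0.00 for all genes. In cluster 2 alone, 13 of 62 were lower and 0 higher, where 12.6% of all 14012 genes were called (5.94% higher, 6.69% lower), and the median was -0.38 against 0.00. All but 4 of the 62 had a negative estimate there. The 13 comprised 4 of 12 H3 genes, 3 of 16 H2B, 2 of 16 H2A, 2 of 13 H4 and 2 of 5 H1 genes, and 7 of them were among the 8 called in the whole T class, which contains these cells. Each estimate rests on 3 mice a group, and the cluster 2 count was 8 without control mouse 1, 19 without control mouse 2, 5 without control mouse 3, and 5, 21 and 4 without CAL-101 mice 1, 2 and 3. In the T class the corresponding counts were 4, 10 and 4, and 5, 7 and 5.

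There were 4 members that kept their call in cluster 2 under every alternative run: Hist1h2bc, Hist1h2bj, Hist1h3g and Hist1h4i. Hist1h2bc stood at 55.3, 38.5 and 67.5 CPM in control and 21.1, 21.7 and 23.1 CPM in CAL-101 mice. The groups were well apart, and the change was -1.34 (log2, SE 0.17, adjusted p = 0.0024). Hist1h2bj, also an H2B gene of the Hist1 cluster, stood at 43.5, 48 and 53.5 against 24.8, 32.1 and 23.8 CPM, again without overlap (-0.90, SE 0.12, adjusted p = 0.0037). Its head-to-head partner Hist1h2ag, at 7.37, 8.05 and 8.24 against 6.46, 6.02 and 6.08 CPM, fell by 0.40 (SE 0.10, adjusted p = 0.034, lost in 5 of 6 runs without 1 mouse, up to 0.14).

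The H3 genes that fell differed in abundance, with 3.02 CPM for Hist1h3g and 64.7 CPM for Hist1h3c in the mean over 6 mice. Hist2h3b, also called, was the lowest, at a mean log2 CPM of 0.95 against 1.58 for Hist1h3g. It changed by -1.02 (SE 0.27, edgeR adjusted p = 0.043). Hist1h3g stood at 3.67, 3.72 and 5.01 against 1.76, 2.08 and 1.88 CPM, a change of -1.16 (SE 0.17, adjusted p = 0.0049). Hist1h3a stood at 14.4, 15.1 and 20.9 against 10.4, 10.1 and 9.3 CPM (-0.82, SE 0.14, adjusted p = 0.0095, and 0.052 without CAL-101 mouse 3). The H4 gene Hist1h4i stood at 64.2, 51.8 and 71.8 against 39.7, 39.3 and 42.8 CPM (-0.68, SE 0.11, adjusted p = 0.0072). In Hist1h3g, Hist1h3a and Hist1h4i every control mouse was above every CAL-101 mouse. These genes, like Hist1h2bc and Hist1h2bj above, were picked by the test on the same values. The lack of overlap between their groups is therefore not separate evidence. Hist3h2a fell by 0.97 and Hist1h3c by 0.50 with adjusted p of 0.027 and 0.038, and up to 0.11 and 0.13 with 1 mouse left out. For Hist3h2a control mouse 2, at 9.44 CPM, lay next to CAL-101 mouse 1 at 9.06.

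Changes of the 2 most abundant members, Hist1h1b and Hist1h1e, were smaller. Hist1h1b fell by 0.30 in cluster 2 (SE 0.08, adjusted p = 0.048, up to 0.17 with 1 mouse left out), with 743, 736 and 878 CPM in control and 656, 638 and 694 in CAL-101 mice. Hist1h1e fell by 0.35 (SE 0.08, adjusted p = 0.027, up to 0.11 with 1 mouse left out), with 273, 255 and 309.7 against 218, 243 and 223 CPM. Over the whole T class Hist1h1b had 0.03 (SE 0.10, adjusted p = 0.87), with 335, 346 and 359.96 CPM in control and 339, 333 and 416 CPM in CAL-101 mice. Hist1h1c fell in the T class by 0.38 (SE 0.10, adjusted p = 0.033) from 70.7, 56.9 and 76.2 to 50.4, 55.1 and 54.9 CPM. It had -0.45 (SE 0.13, adjusted p = 0.052) in cluster 2.

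**Figure D4:**
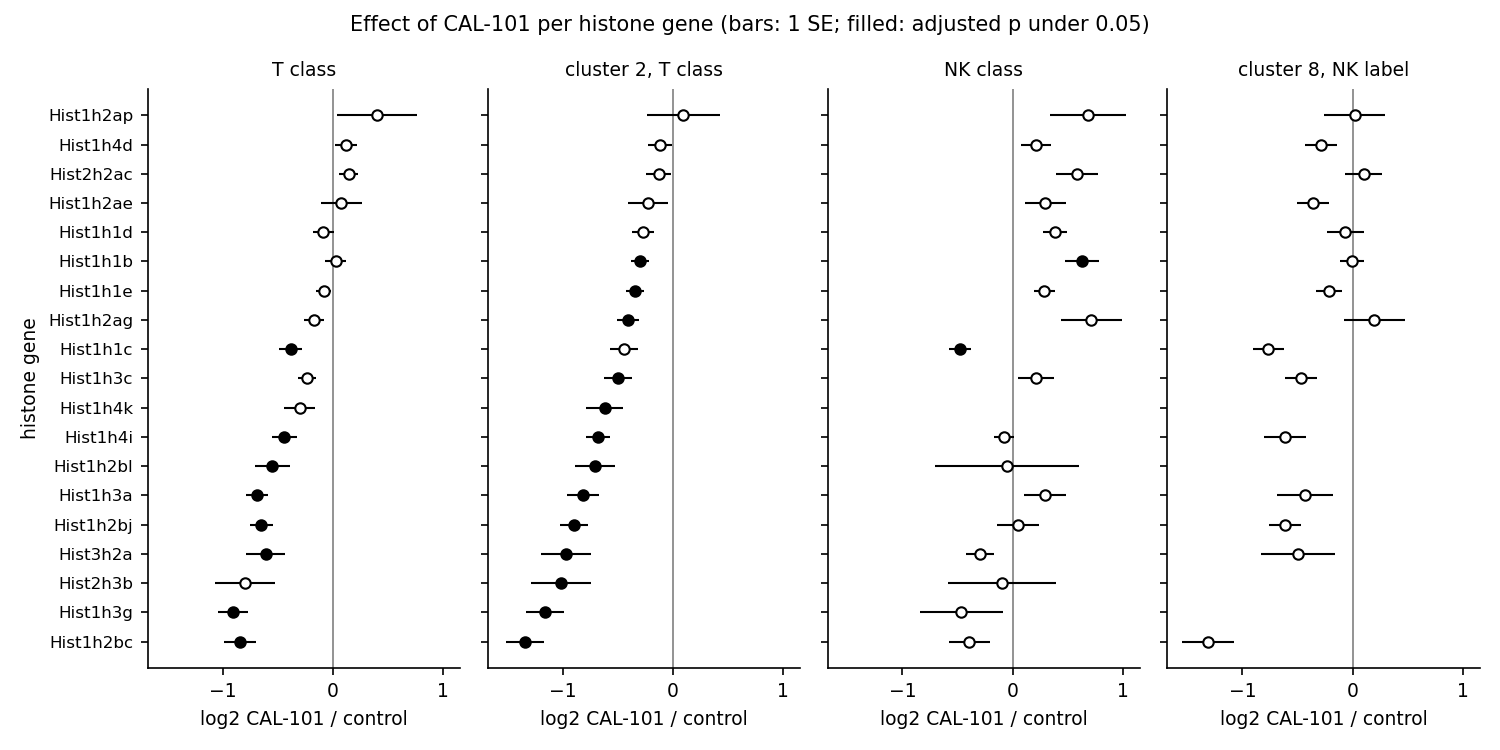
Log2 change of CAL-101 against control (x axis) for 19 histone genes in the 4 cell sets, each point with 1 SE; filled points passed an adjusted p of 0.05 and a missing point was not tested. In cluster 2 the values run from -1.34 for Hist1h2bc to 0.10 for Hist1h2ap, and in the NK class Hist1h1b lies at 0.63.

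In T cells outside the cycling cluster, 7 of 60 members were lower and 0 higher, with 18% of all 15715 genes called (8.9% higher, 9.14% lower). The members' share, 11.7%, was below that background, and the median member change was -0.28 against 0.00 for all genes. Of these 7, 6 (85.7%) were among the 13 called in cluster 2 (46.2%): Hist1h2bc, Hist1h2bj, Hist1h3a, Hist1h3c, Hist1h3g and Hist1h4i. The other was Hist1h1c, at 55.9, 44.2 and 58.1 against 38, 34.7 and 37.7 CPM (-0.57, SE 0.10, adjusted p = 0.0077). Without clusters 2, 4 and 6, a cell set chosen after the data were seen, 9 of 58 members were lower and 0 higher. That was 15.5% of members, where 18.1% of all 15330 genes were called (9.08% higher, 9.05% lower). Both cell sets differed in make-up between groups. Cluster 3 held 1897, 823 and 1956 cells in control and 174, 685 and 427 in CAL-101 mice. Cluster 5 held 179, 92 and 107 against 886, 1393 and 1271 cells. The part of this make-up in the changes was not tested.

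Other transcripts moved with these results. In cluster 2, markers of neutrophils, in which Hist1h2bc is high, summed to 4.5, 1.3 and 2.1 CPM in control and 1.1, 1 and 0.9 in CAL-101 mice, and all 5 were detected. Markers of dendritic cells summed to 205, 512 and 245 against 174, 121 and 101 CPM. Their part in the histone changes was not tested. Of the 39 S phase genes 2 were higher and 0 lower in cluster 2 with CAL-101, and of the 53 G2/M genes 7 were higher (Aurka by 0.42, Cks2 by 0.36) and 1 lower. The G2/M genes together stood at 8599, 8468 and 8731 against 9788, 9619 and 9774 CPM, so their share was higher in every CAL-101 mouse while that of histone genes was lower, and the part of the cycle position in the histone changes was not tested.

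Hist1h2ap, the most abundant H2A gene, spread widely among mice of the same group. In cluster 2 Hist1h2ap stood at 226, 241, 166, 116, 349.9 and 237 CPM, a 3-fold range between CAL-101 mice 1 and 2. Among 27 members with a mean of at least 10 CPM in these cells the median ratio of highest to lowest mouse was 1.69, and only Hist1h2bc, whose groups differ, had a larger one than Hist1h2ap (3.2). The same mouse was highest for Hist1h2ap in all 4 cell sets, at 188 CPM in the T class, 82 in the NK class and 301 in cluster 8. CAL-101 mouse 1 was the lowest in the T class, cluster 2 and cluster 8, and control mouse 3 in the NK class. Hist1h2ae stood at 206, 197, 194, 131, 239 and 159 CPM in cluster 2, a ratio of 1.82, with the same mice at the ends. No CAL-101 change of either gene passed the test in any of the 4 cell sets. Without these 2 genes the summed level in cluster 2 was 1954, 1902, 2347, 1631, 1750 and 1648 CPM. The lowest control mouse there stood further above the highest CAL-101 mouse than with them. The 2 genes were picked for their spread in these same data, and CAL-101 mouse 2 was highest for both in cluster 2. The wider gap is therefore not separate evidence. Without the 2 genes, control and CAL-101 mice overlapped in the T class (1023 to 1135 against 948.2 to 1075 CPM) and in cluster 8 (2043 to 2617 against 1918 to 2156). In the NK class every CAL-101 mouse was higher (538.3 to 669.2 in control against 696.4 to 752.8 CPM).

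**Figure D5:**
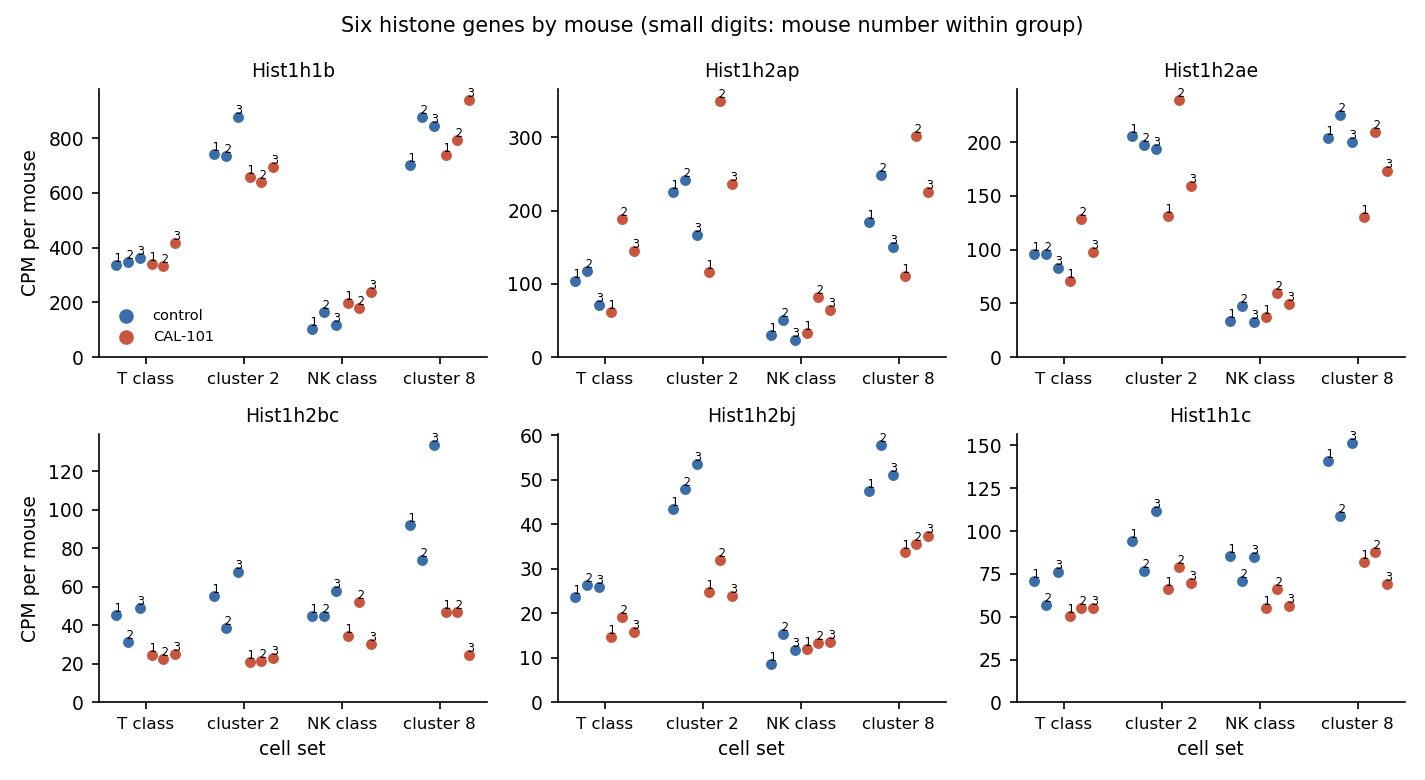
CPM of 6 histone genes in each mouse (blue control, red CAL-101, small digits the mouse number within its group) in 4 cell sets. Hist1h2bc in cluster 2 is 38.5 to 67.5 in control and 21.1 to 23.1 in CAL-101 mice, while Hist1h2ap spreads from 116 to 349.9 within the CAL-101 mice.

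NK cells were not part of the culture with the drug, and in them the direction was mixed. The summed level was 602, 768, 679, 768, 838 and 866 CPM, and control mouse 2 and CAL-101 mouse 1 were almost equal. Of 57 members tested, Hist1h1b was higher and Hist1h1c lower, with 4.89% of all 14028 genes called (2.97% higher, 1.92% lower), so the share of members, 3.51%, was below the background. Hist1h1b rose from 103, 164 and 119 to 196, 180.1 and 236 CPM (0.63, SE 0.15, adjusted p = 0.048). Hist1h1c fell from 85.3, 71 and 84.9 to 55.2, 66 and 56.4 CPM (-0.48, SE 0.10, adjusted p = 0.033). The count was 0 without control mouse 1 or 3 and without CAL-101 mouse 1 or 3, and 8 without control mouse 2 (5 higher, 3 lower). Cluster 8 made up 4.39, 7, 4.9, 10.2, 9.81 and 10.2% of NK cells, higher in every CAL-101 mouse. Outside cluster 8, Hist1h1b (0.07, SE 0.13, adjusted p = 0.84) and Hist1h1c (-0.50, SE 0.12, adjusted p = 0.057) lost their calls. The estimate of Hist1h1c stayed close to that of the whole NK class, while that of Hist1h1b did not. In these cells 0 of 46 members passed edgeR's test (3 at an unadjusted p under 0.05, where 19.2% of all genes passed). The median member change was -0.05, and 2.52% of all 13710 genes were called (1.47% higher, 1.04% lower).

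In the NK-labelled cells of cluster 8, with 56 to 245 cells per mouse, edgeR called 0 of 36 members, where 0.0977% of all 9215 genes were called. At an unadjusted p under 0.05 there were 12, where 10.4% of all genes passed, DESeq2 called 2, and 30 of the 36 estimates were negative, with a median of -0.29 against 0.00 for all genes. The smallest p-values were those of Hist1h2bc, Hist1h1c and Hist3h2ba. Hist1h2bc stood at 92, 74 and 134 CPM in control and 46.9, 46.8 and 24.8 in CAL-101 mice (-1.31, SE 0.24, adjusted p = 0.064). Hist1h1c stood at 141, 109 and 151 against 81.6, 88 and 68.9 CPM (-0.76, SE 0.14, adjusted p = 0.065). Hist3h2ba stood at 23.7, 13.6 and 23.1 against 8.8, 3.74 and 8.46 CPM (-1.32, SE 0.31, adjusted p = 0.13). No call was made for them. These 3 genes were picked by p-value in the same comparison, so the lack of overlap between their groups is not separate evidence. Neutrophil markers in these cells summed to 6.5, 1.8 and 3.8 against 1.1, 0.9 and 0.6 CPM, and their part was not tested.

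Whether the change in CAL-101 mice differed between T and NK cells was tested within each mouse. The value tested was log2 CPM in T cells minus that in NK cells. None of 57 members passed limma's test between the T and NK classes, with 0.906% of all 13901 genes called. At an unadjusted p under 0.05, 21 did, where 17.1% of all genes did, the smallest being Hist2h3c1 (-0.87, SE 0.15, adjusted p = 0.073), Hist1h1d (-0.47, SE 0.08, adjusted p = 0.082) and Hist1h3a (-0.92, SE 0.18, adjusted p = 0.10). A negative value means that the log2 change in T cells lay below that in NK cells, not that it was smaller in size. Between clusters 2 and 8, 0 of 36 members passed limma's test (4 at an unadjusted p under 0.05, where 11.7% of all genes passed), with 0.294% of all 9179 genes called. For Hist1h2bc the changes were -1.34 and -1.31 in the 2 clusters, and for Hist1h1b -0.30 and -0.01. These tests do not show that the effects were alike.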

How the data were processed

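RNA was measured in 6 libraries, 1 per mouse, of live CD45.2+ cells from resected tumours. The authors deposited 1 matrix of UMI counts per library. The matrix headers name Cell Ranger 7.1.0, and the submitters' processing notes list the build mm10 and Seurat. Cell labels and clusters are those deposited by the authors, and the sources used here do not say how they were made. The libraries held 75716841 to 97933109 RNA UMIs from 6152 to 9147 cells, and pairs of libraries shared 8 to 31 cell barcodes. The 3 T cell labels were merged into 1 T class. Replicates are separate mice, per the labels.

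UMI sums per mouse and cell set entered edgeR 4.0.16 (filterByExpr, TMM scaling, quasi-likelihood test) in R 4.3.3. All genes were tested, p-values were adjusted by Benjamini-Hochberg and 0.05 was the limit. Differences of effect used limma 3.58.1 with a prior count of 2, and DESeq2 1.42.0 was an alternative. Cells with under 10 phase-list UMIs stayed out of the phase comparison. Scrublet's automatic threshold marked 0.246% of cells, too few to be used, so doublets were not removed, and leaving out the highest scores was an alternative. The scripts were tested on simulated data. Promoters and coordinates came from RefSeq (GRCm38.p6), to which all 67 members matched by symbol or synonym, 62 with a promoter; Hist1h2ap was matched by elimination between 2 candidates. Python 3.11.15 with scanpy 1.11.5 and matplotlib 3.10.9 was used for sums and plots.

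The members and lists were chosen with earlier results of these data known. Named genes were the 12 most abundant members in T and NK cells, up to 10 called members each way (or the 3 smallest p), up to 4 genes of each list, and the 5 largest and smallest cluster ratios.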

Additional observations from a re-analysis of the deposited data

How the results depend on the processing

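No result reversed its direction under any alternative in which it was called. In the T class the number of histone genes called (8) was 5 with the replicate block and 4 to 10 with 1 mouse left out. In cluster 2 (13) it was 5 with the replicate block and 4 to 21 with 1 mouse left out. In NK cells (2) it was 6 with no filter, 1 without the highest doublet scores, 0 outside cluster 8 and 0 to 8 with 1 mouse left out. In cluster 8 (0) it was 5 with no filter, 2 with DESeq2, 2 with the replicate block, 2 with thinned sums, 2 with all labels (added after the data were seen) and 0 to 4 with 1 mouse left out. For S-rich against G2/M-rich cells the count in cluster 2 (22) was 12 with no replicate block and 21 to 24 with 1 mouse left out, and in cluster 8 (4) it was 1 with cells thinned to 4000 UMIs and 3 to 5 with 1 mouse left out. Both differences of effect stayed at 0 in every run. The share of cells with a histone UMI in CAL-101 minus control was 0.178 percentage points in T cells (-1.51 to 2.41 with 1 mouse left out) and 0.804 in NK cells (0.378 to 1.21). The NK value was -0.85 without thinning and 2.28 for at least 3 histone UMIs. The cause of these shifts was not tested. Deviations of same-numbered mice correlated at -0.48, -0.47 and -0.14 in T cells, 0.24, -0.004 and -0.22 in NK cells, -0.56, -0.56 and -0.02 in cluster 2 and -0.03, -0.16 and -0.12 in cluster 8. In no cell set was every pair above 0.1, so the numbers were not taken as pairs. Only for NK cells of control mouse 1 was the same-numbered CAL-101 mouse the best match.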

Other observations

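Genes for replication-independent histones, which replace or join the histones described above, changed with CAL-101 in opposite directions. In T cells the linker gene H1fx rose by 1.30 (log2, SE 0.11, adjusted p = 0.00037) and the linker gene H1f0, known from cells that have stopped dividing, fell by 1.06 (SE 0.18, adjusted p = 0.0068). In cluster 2 they changed by 1.14 (adjusted p = 0.0038) and -1.21 (adjusted p = 0.0037). H2afj fell by 0.31 in cluster 2 (adjusted p = 0.027). H1f0 also fell in NK cells, by 0.72 (SE 0.15, adjusted p = 0.032). H2afx rose by 0.45 in T cells and by 0.54 in NK cells. Of 10 variants tested, 2 were higher and 2 lower in T cells, and 1 was higher and 1 lower in NK cells. Over all genes, 9.46% were higher and 9.63% lower in T cells, and 2.97% were higher and 1.92% lower in NK cells.

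In the T class, 3 of 20 histone mRNA transcription and processing genes were higher (Cpsf2 by 0.30, Ncbp2 by 0.30 and Slbp by 0.26) and 0 lower, and 7 of 21 chaperone genes were higher, led by Nap1l1 (0.67), where 9.46% of all genes were higher. In cluster 2 these counts were 1 of 20 (Lsm10, 0.37) and 1 of 21 (Nap1l1, 0.50), where 5.94% of all genes were higher. In NK cells 1 of 19 (Srrt, 0.50) and 5 of 21 (Chaf1a by 0.67 and Asf1b by 0.68 among them) were higher, where 2.97% of all genes were. Cell cycle genes were higher in the same classes, 10 of 39 S phase and 37 of 53 G2/M genes in T cells and 20 of 39 and 29 of 53 in NK cells, with 0 lower, and their part in the other counts was not tested.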
